A study of Mus musculus with 26 samples.

Results

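Microglia transcripts are 9 genes whose RNA marks resident microglia, the macrophages of brain and spinal cord, and they serve here as a measure of microglial RNA in T cell libraries. The 9 are P2ry12, Tmem119, Fcrls, Sall1, Cx3cr1, Olfml3, Siglech, Gpr34 and Slc2a5, chosen by name from 24848 genes and followed in every library. The libraries came from C57BL/6 mice with active experimental autoimmune encephalomyelitis (EAE), a T cell-driven inflammation of the central nervous system (CNS), at day 14. Regulatory T cells (Treg, CD4+ and Foxp3+) and conventional T cells (Tconv, CD4+ without Foxp3) were sorted from the CNS or from the draining lymph node (dLN). Control mice (Ctrl) carried Foxp3Cre-ERT2, a tamoxifen-activated Cre made by Foxp3-expressing cells, and knockout mice (icKO) carried it together with Tnfrsf1bFlox/Flox, a design meant to delete TNFR2, the product of Tnfrsf1b, in Treg cells. Both genotypes received tamoxifen from day 7 to day 14, so the Cre and the drug are shared by all 8 groups. Each group had 3 libraries, except CNS Tconv with 4 Ctrl and 4 icKO.

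Microglia settle in the CNS during embryonic life and keep a homeostatic programme that sets them apart from blood-derived macrophages. Its surface receptors sense the neural tissue: P2ry12 is a purinergic receptor for nucleotides, Cx3cr1 binds the neuronal chemokine fractalkine, Gpr34 responds to lysophosphatidylserine, and Siglech and Fcrls belong to the sialic acid-binding and Fc receptor-like families. Sall1 is a transcription factor that maintains microglial identity, Tmem119 is a membrane protein used to tell microglia from infiltrating macrophages, Olfml3 is a secreted glycoprotein, and Slc2a5 is the fructose transporter GLUT5. Outside microglia, Siglech is a standard marker of plasmacytoid dendritic cells, and Cx3cr1 is found on monocytes and on some effector T cells.

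All 9 are protein-coding genes in GENCODE on GRCm38 (mm10). Chromosome 3 carries P2ry12 (chr3:59216272-59262871), Fcrls (chr3:87250758-87263738) and Olfml3 (chr3:103722222-103738001), all on the minus strand. Tmem119 (chr5:113793729-113800516), Sall1 (chr8:89027235-89044162) and Cx3cr1 (chr9:119901616-120069879) are also on the minus strand. Slc2a5 (chr4:150119283-150144169), Siglech (chr7:55768178-55778925) and Gpr34 (chrX:13632089-13640858) are on the plus strand. Gpr34 lies inside Cask on the opposite strand, with 0 exonic bases in common. P2ry12 shares 9 exonic bases with Med12l and Cx3cr1 shares 78 with the antisense RNA Gm33858, so reads over these bases cannot be assigned by strand in these unstranded libraries. Med12l itself stood at 1.25 CPM (a gene's count relative to its library's total) in control CNS Treg libraries.

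RefSeq promoter windows of GRCm38.p6, 250 bases before to 50 after the start, were given for 7 of the 9 members. They were searched on both strands for GAGGAA, the core of sites for the myeloid factor PU.1, and for CTATTTA, the core of MEF2 sites. GAGGAA stood in the windows of Fcrls and Siglech, and in 28.28% of all 32851 promoter windows of the table. CTATTTA stood in none of the members' windows and in 2.907% of all windows. Stretches of 3 windows are shown to place these matches: the Siglech stretch runs across the RefSeq start and the Fcrls stretch lies between annotated GENCODE exons, both with the match in capitals, and the 250 bases before P2ry12, a widely used microglial marker gene, hold neither motif. They are read 5′ to 3′ on the gene's strand and come from chr7:55767934-55768187 (plus strand), chr3:87263600-87263677 (minus strand) and chr3:59262986-59263235 (minus strand). In Siglech the capitals are the complement of GAGGAA read on the other strand.
Siglech: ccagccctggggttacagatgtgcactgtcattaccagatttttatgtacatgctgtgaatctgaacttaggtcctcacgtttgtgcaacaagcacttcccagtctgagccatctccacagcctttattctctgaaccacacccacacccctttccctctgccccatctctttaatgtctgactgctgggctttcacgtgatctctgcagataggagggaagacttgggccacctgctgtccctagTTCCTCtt
Fcrls: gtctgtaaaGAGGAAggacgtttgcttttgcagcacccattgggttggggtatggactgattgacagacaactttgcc
P2ry12: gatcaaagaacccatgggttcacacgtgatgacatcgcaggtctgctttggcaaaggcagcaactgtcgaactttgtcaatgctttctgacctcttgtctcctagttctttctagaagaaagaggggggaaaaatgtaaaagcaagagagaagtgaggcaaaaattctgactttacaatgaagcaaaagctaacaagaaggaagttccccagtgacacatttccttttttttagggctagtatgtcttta

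Values are CPM scaled with TMM factors, which adjust each library's total for differences in RNA make-up, unless a sentence says TPM, the deposited measure per transcript length. The 25 libraries in the fit held 12.42 M to 18.53 M expected counts (M is the SI mega) with 11089 to 14259 genes detected. Replicate 3 of the group labelled dLN Tconv icKO stood apart with 7.78 M counts and 6005 genes. Siglech, with 314 counts, was its one member above 0, and the library was left out of the fit. For 5 of the 8 CNS Tconv libraries (Ctrl replicates 3 and 4, icKO replicates 2, 3 and 4) the file name disagreed with the label, and the labels were followed. Foxp3 was 36.03 ± 20.96 (SD, n = 3) in control CNS Treg and 0.880 ± 0.482 (n = 4) in control CNS Tconv libraries, and Cd3e, a T cell receptor chain, was 906 ± 23.9 and 1264 ± 119. The targeted Tnfrsf1b was 610 ± 137 in Ctrl and 406 ± 89.6 in icKO CNS Treg (n = 3 each), with overlapping ranges, 795 ± 60.5 and 619 (617.6 to 619.8) in dLN Treg, and 208 ± 25.9 and 343 ± 51.9 in CNS Tconv (n = 4 each). It was thus still counted in every icKO library, and a count per gene does not show which exons remained. The labels number replicates as mice and do not say whether CNS and dLN libraries share a mouse.

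In CNS Treg libraries all 9 microglia transcripts were present in all 6 libraries. P2ry12 was 152.1, 134.0 and 136.4 in Ctrl and 166.3, 175.6 and 140.0 in icKO, against 0.686 to 1.53 in control and 1.18 to 2.37 in icKO dLN Treg. Cx3cr1 was 183.7, 208.8 and 144.8 in Ctrl and 189.1, 186.7 and 154.6 in icKO, against 0.936 to 2.76 over the 6 dLN Treg libraries. Their group means lay 94.95- to 130.3-fold above dLN Treg with no overlap, and their 6 CNS Treg values spanned 1.31-fold (P2ry12) and 1.44-fold (Cx3cr1). Siglech was 126.2, 103.1 and 113.0 in Ctrl and 95.45, 130.9 and 110.8 in icKO, and 0 to 6.08 in dLN Treg. Gpr34 was 67.05, 54.00 and 69.11 in Ctrl and 89.55, 75.99 and 47.38 in icKO, against 5.89 to 18.6 in dLN Treg. Gpr34 was the one member with several CPM in all dLN Treg libraries.

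Fcrls was 126.1, 100.2 and 87.79 in Ctrl and 111.8, 123.8 and 84.37 in icKO CNS Treg. It had 0 counts in all 6 dLN Treg libraries. Tmem119 was 395.5, 290.9 and 218.3 in Ctrl and 195.5, 345.4 and 257.5 in icKO, against 0 to 0.415 in dLN Treg, and its CNS values spanned 2.02-fold. By TPM it was the highest member of CNS Treg libraries (248 ± 65.1 in Ctrl, n = 3), and Sall1 was the lowest (3.36 ± 2.01). Sall1 was 4.05, 17.27 and 11 CPM in Ctrl and 16.97, 15.81 and 13.94 in icKO, with 0 counts in every dLN library of the fit. Ctrl replicate 1 was the lowest CNS Treg library for Sall1 and the highest for Fcrls, Tmem119, Olfml3 and Slc2a5, so the members did not keep 1 order over the libraries. Olfml3 was 174.8, 133.7 and 132.1 in Ctrl and 139.2, 151.4 and 132.0 in icKO, against 0.187 to 2.07 in dLN Treg. Slc2a5 was 37.42, 30.62 and 21.87 in Ctrl and 29.04, 34.82 and 20.61 in icKO, with 0 counts in dLN Treg. The 9 together summed to 1091 ± 167 in Ctrl and 1078 ± 145 in icKO CNS Treg (n = 3 each), against 18.0 ± 8.48 and 20.2 ± 4.94 in dLN Treg.

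**Figure D1:**
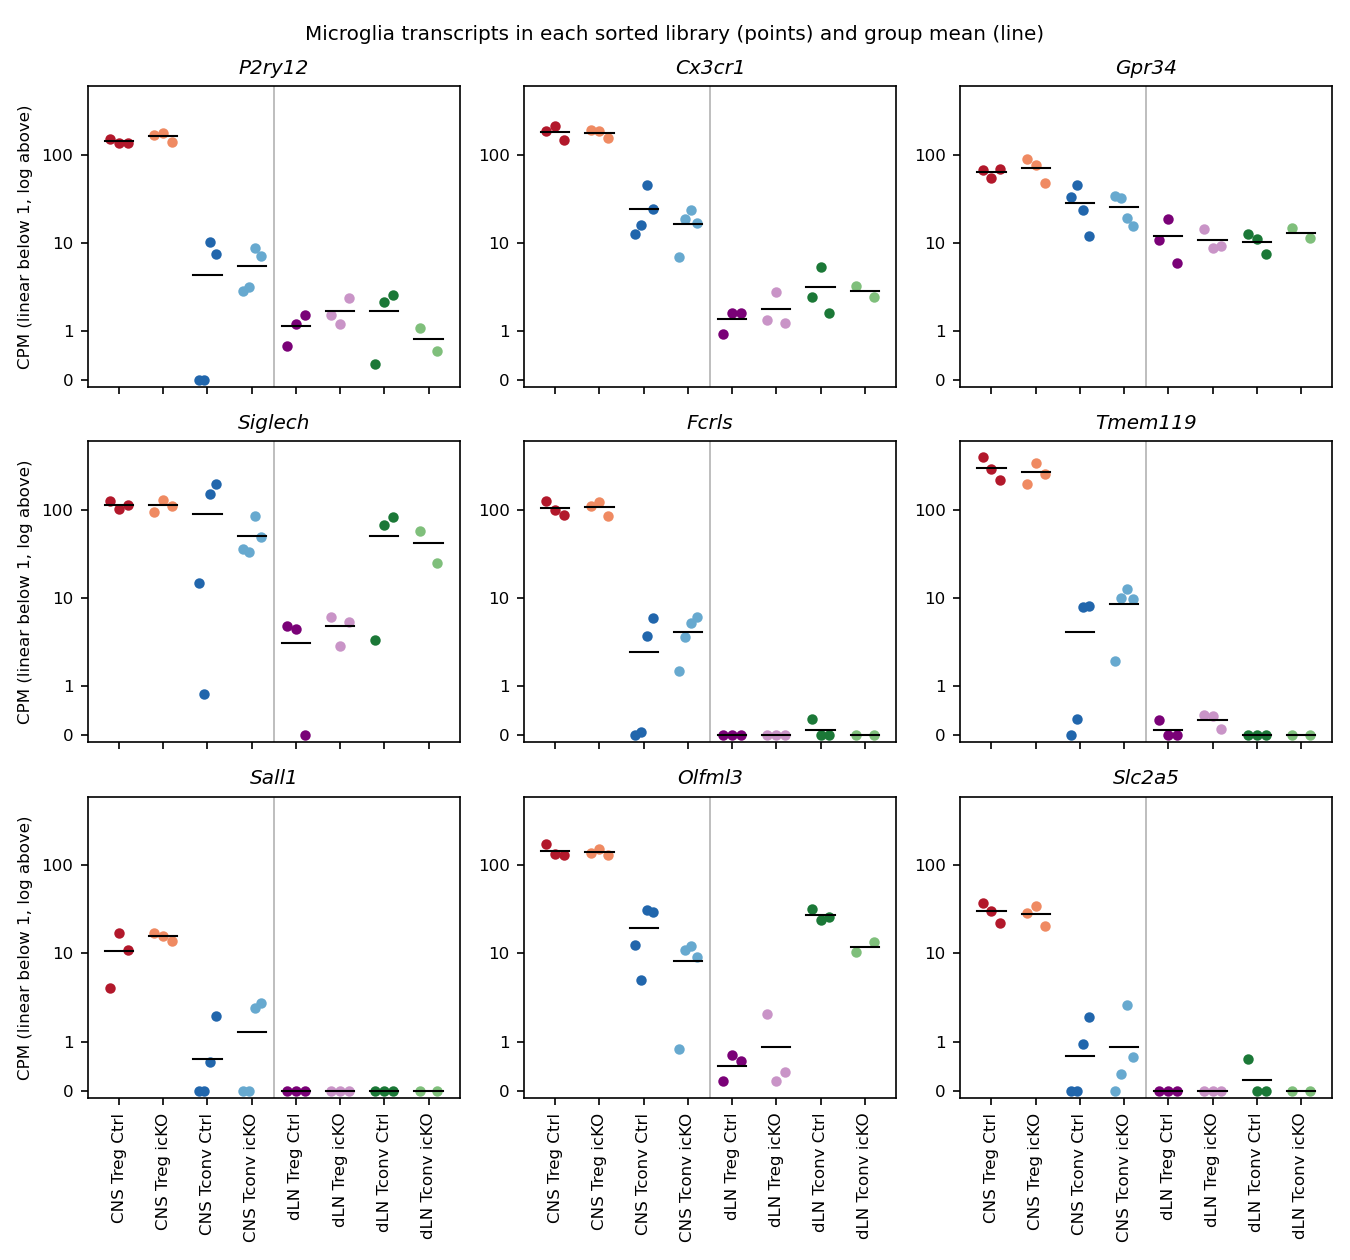
CPM (linear below 1, log above) of each of the 9 genes in the 25 libraries, by group, with points for libraries and lines for group means. CNS Treg libraries lie highest for 8 of the genes, while the highest single Siglech value, 195.7, is a CNS Tconv library.

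The order of the members within CNS Treg libraries, by TPM over both genotypes, ran from Tmem119 (mean 226) and Olfml3 (140) over P2ry12 (103), Fcrls (88.6), Siglech (77.3), Cx3cr1 (75.8) and Gpr34 (59.7) to Slc2a5 (15.2) and Sall1 (3.94). The neighbours Fcrls, Siglech, Cx3cr1 and Gpr34 had overlapping ranges, as did P2ry12 and Fcrls. The ranges of P2ry12 and Olfml3, and of Olfml3 and Tmem119, overlapped too. Within every single CNS Treg library, however, Tmem119 was above Olfml3 and Olfml3 above P2ry12 by TPM. For scale, Foxp3, the factor the Treg cells were sorted for, had a TPM of 16.2 ± 10.3 in control CNS Treg. No library of pure microglia was used here, so these levels were not turned into a share of cells, and in bulk RNA fewer cells and less RNA per cell cannot be told apart.

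CNS and dLN were compared within each cell type and genotype with edgeR's quasi-likelihood test, and a gene was called at a Benjamini-Hochberg adjusted p under 0.05 over the 13500 genes tested. In control Treg cells all 9 members were higher in the CNS, where 13.3% of all genes were called higher. In icKO Treg cells, which share no library with the first comparison, all 9 were again higher, beside 13.1% of all genes. The median log2 difference of the members was 8.17 in Ctrl and 7.32 in icKO, and that of all genes 0.02 and 0.04. Fcrls, Tmem119, Sall1 and Slc2a5 passed the filter on low counts only through CNS libraries and so had to differ. The other 5 also passed through dLN libraries.

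Among the receptors, P2ry12 was higher in CNS Treg by a log2 fold change of 6.96 ± 1.09 (SE, adjusted p = 0.00014) in Ctrl and 6.56 ± 1.05 (adjusted p = 0.00015) in icKO. Cx3cr1 was higher by 7.03 ± 0.57 (adjusted p = 5.9e-08) and 6.64 ± 0.56 (adjusted p = 1e-07). Siglech was higher by 5.17 ± 1.28 (adjusted p = 0.0062) and 4.56 ± 1.23 (adjusted p = 0.01). The smallest difference was that of Gpr34, 2.42 ± 0.43 (adjusted p = 0.0005) and 2.72 ± 0.44 (adjusted p = 0.00017), a ratio of group means of 5.38 and 6.60. Among the others, Olfml3 was higher by 8.17 ± 0.90 (adjusted p = 3.7e-06) and 7.32 ± 0.85 (adjusted p = 5.4e-06), and Tmem119 by 11.29 ± 1.33 and 9.71 ± 1.19 (adjusted p = 1.8e-05 and 2.1e-05). Where dLN Treg libraries had 0 counts the fold is a lower bound against 3 counts per library. Fcrls was then at least 485-fold higher in Ctrl and 516-fold in icKO, Slc2a5 at least 139-fold and 136-fold, and Sall1 at least 49.9-fold and 75.3-fold. With the library of 6005 genes kept in the fit, Gpr34 was not called in Ctrl (adjusted p = 0.11) or icKO (0.075), nor Siglech in icKO (0.057), and Siglech in icKO also lost its call without dLN Treg icKO replicate 2 (adjusted p = 0.055). With limma, Siglech was called in neither genotype (adjusted p = 0.078 and 0.057).

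CNS Treg and CNS Tconv libraries come from the same tissue and differ in the sort. Libraries with disagreeing file names occur only among CNS Tconv, so the sort may not be the only difference. In control mice 7 of the 9 members were higher in Treg libraries, beside 10.8% of all genes called higher, and in icKO mice the same 7, beside 8.38%. The 7 were P2ry12, Cx3cr1, Gpr34, Fcrls, Tmem119, Olfml3 and Slc2a5, and the remaining 2, Siglech and Sall1, were not called in either genotype. The median log2 difference of the 9 was 4.09 in Ctrl and 4.10 in icKO, and that of all genes 0.02 and 0.00. The control CNS Treg libraries also enter the tissue comparison above.

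The members differed from each other in how far the Tconv libraries lay below the Treg libraries. Averaged over both genotypes, the CNS Tconv level was 2.24% of the CNS Treg level for Tmem119, 2.76% for Slc2a5, 3.09% for Fcrls, 3.25% for P2ry12 and 7.32% for Sall1. It was 9.64% for Olfml3, 11.4% for Cx3cr1, 39.9% for Gpr34 and 62.5% for Siglech. These shares pool CNS Tconv libraries that differ: in the 2 Ctrl libraries whose file names match their labels the means were 0.167 CPM for Tmem119, 39.2 for Gpr34 and 7.79 for Siglech, against 8.06, 17.7 and 173 in the other 2, so the order of Gpr34 and Siglech turned. In Ctrl the log2 fold change was 6.22 ± 0.83 for Tmem119 (adjusted p = 3.9e-05), 5.46 ± 0.90 for Fcrls (0.00042), 5.42 ± 1.24 for Slc2a5 (0.0057) and 5.04 ± 0.85 for P2ry12 (0.00025). In icKO these 4 genes differed by 4.95 ± 0.77 (adjusted p = 0.00023), 4.70 ± 0.86 (0.0013), 4.98 ± 1.21 (0.011) and 4.89 ± 0.84 (0.00039), in the same order. Cx3cr1 differed by 2.88 ± 0.41 in Ctrl (adjusted p = 3.8e-05) and 3.43 ± 0.41 in icKO (7.1e-06), and Olfml3 by 2.92 ± 0.58 (0.0012) and 4.09 ± 0.61 (9.2e-05). Gpr34 differed by 1.15 ± 0.38 (adjusted p = 0.04) and 1.5 ± 0.38 (0.011). Siglech gave 0.34 ± 0.96 (adjusted p = 0.85) and 1.14 ± 0.96 (0.50), and Sall1 4.08 ± 1.46 (0.066) and 3.59 ± 1.41 (0.12), with the largest SE of the 9 for Sall1 in both genotypes. The Gpr34 call in Ctrl was lost in 6 of the 7 fits that left out 1 library (adjusted p up to 0.092, kept without CNS Tconv Ctrl replicate 2), and with all 26 libraries Gpr34 was called in neither genotype, Olfml3 not in Ctrl (adjusted p = 0.07) and Slc2a5 not in icKO (0.086). Sall1 was called in Ctrl without CNS Tconv Ctrl replicate 4 (adjusted p = 0.026). Without the 5 CNS Tconv libraries with disagreeing names, Siglech was called in Ctrl at 3.90 (adjusted p = 0.028), Sall1 in both genotypes (0.00086 and 0.013) and Gpr34 in neither (0.22 and 0.28). Sall1 was also called with limma (0.011 in Ctrl, 0.00059 in icKO) and with the replicate block in Ctrl (0.038), and Siglech in icKO with only the groups compared (0.044).

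**Figure D2:**
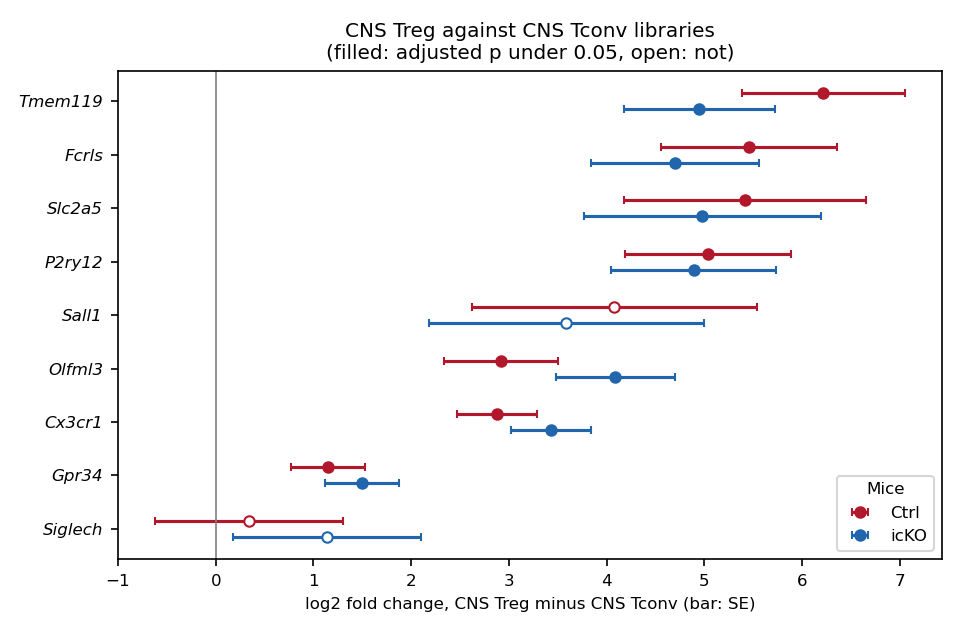
Log2 fold change of CNS Treg over CNS Tconv libraries for each gene in Ctrl (red) and icKO (blue) mice, with SE bars, filled points for adjusted p under 0.05 and open points above. Tmem119 in Ctrl is largest at 6.22, Siglech smallest at 0.34 in Ctrl, and the open points are Sall1 and Siglech.

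Library by library, the CNS Tconv samples differed widely in P2ry12, Fcrls, Tmem119, Sall1 and Slc2a5, a set of 5 genes named after its values were seen. Their summed level was 0, 0.390, 23.3 and 25.2 in Ctrl replicates 1 to 4 and 6.28, 17.1, 31.8 and 26.4 in icKO replicates 1 to 4, against 475 to 715 in CNS Treg and 0.593 to 2.55 in all dLN libraries of the fit. P2ry12 had 0 counts in Ctrl replicates 1 and 2, which allows up to 0.210 and 0.162 CPM at 3 counts per library, and was 10.05 and 7.35 in replicates 3 and 4. In icKO replicates 1 to 4 P2ry12 was 2.86, 3.11, 8.79 and 7.04. Ctrl replicates 1 and 2 thus lay at or below the dLN libraries for P2ry12, and Ctrl replicates 3 and 4 above every dLN library. Tmem119 was 0, 0.334, 8.01 and 8.10 in Ctrl and 1.94, 9.99, 12.7 and 9.84 in icKO. Fcrls was 0, 0.0557, 3.72 and 5.91 in Ctrl and 1.49, 3.64, 5.27 and 6.08 in icKO. The low libraries are the 3 whose file names match their labels (Ctrl 1 and 2, icKO 1), and the 5 with disagreeing names were higher than these within each genotype for the 5-gene sum. What the names stand for was not tested. Counts without molecular identifiers are not independent molecules, so the 3-count limits cover counting error only.

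Cx3cr1, Gpr34, Siglech and Olfml3 were above 0 in all 8 CNS Tconv libraries. Cx3cr1 was 12.5, 16.1, 44.8 and 23.9 in CNS Tconv Ctrl and 6.80, 18.7, 23.7 and 16.5 in icKO. Olfml3 was 12.3, 5.02, 31.0 and 29.5 in Ctrl and 0.857, 10.9, 12.2 and 9.22 in icKO. Both were highest in Ctrl replicate 3. Gpr34 ran the other way, with 33.1, 45.3, 23.5 and 11.96 in Ctrl and 33.5, 32.3, 19.2 and 15.6 in icKO, so that its highest library, Ctrl replicate 2, had 0 counts for P2ry12, Sall1 and Slc2a5. Siglech was 14.8, 0.836, 150.6 and 195.7 in Ctrl and 35.8, 33.1, 86.0 and 49.8 in icKO. The 7 listed plasmacytoid dendritic cell genes (Klk1, Cox6a2, Ccr9, Spib, Tcf4, Pacsin1 and Ly6d) summed to 89.4, 30.7, 233.5 and 462.6 in the same Ctrl libraries and 86.6, 97.7, 150 and 96.6 in icKO. For comparison, the CNS Treg libraries summed to between 91.1 and 140 for this list, and the dLN Treg libraries to between 33.1 and 59.8. The lowest and highest Siglech libraries were the lowest and highest of this list in Ctrl Tconv, CNS and dLN alike. In icKO CNS Tconv both were highest in replicate 3, but Siglech was lowest in replicate 2 (33.1) and the list in replicate 1 (86.6). Among the CNS Treg libraries Siglech was highest in icKO replicate 2 and the list in Ctrl replicate 3. The list's part in the Siglech level was not tested.

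**Figure D3:**
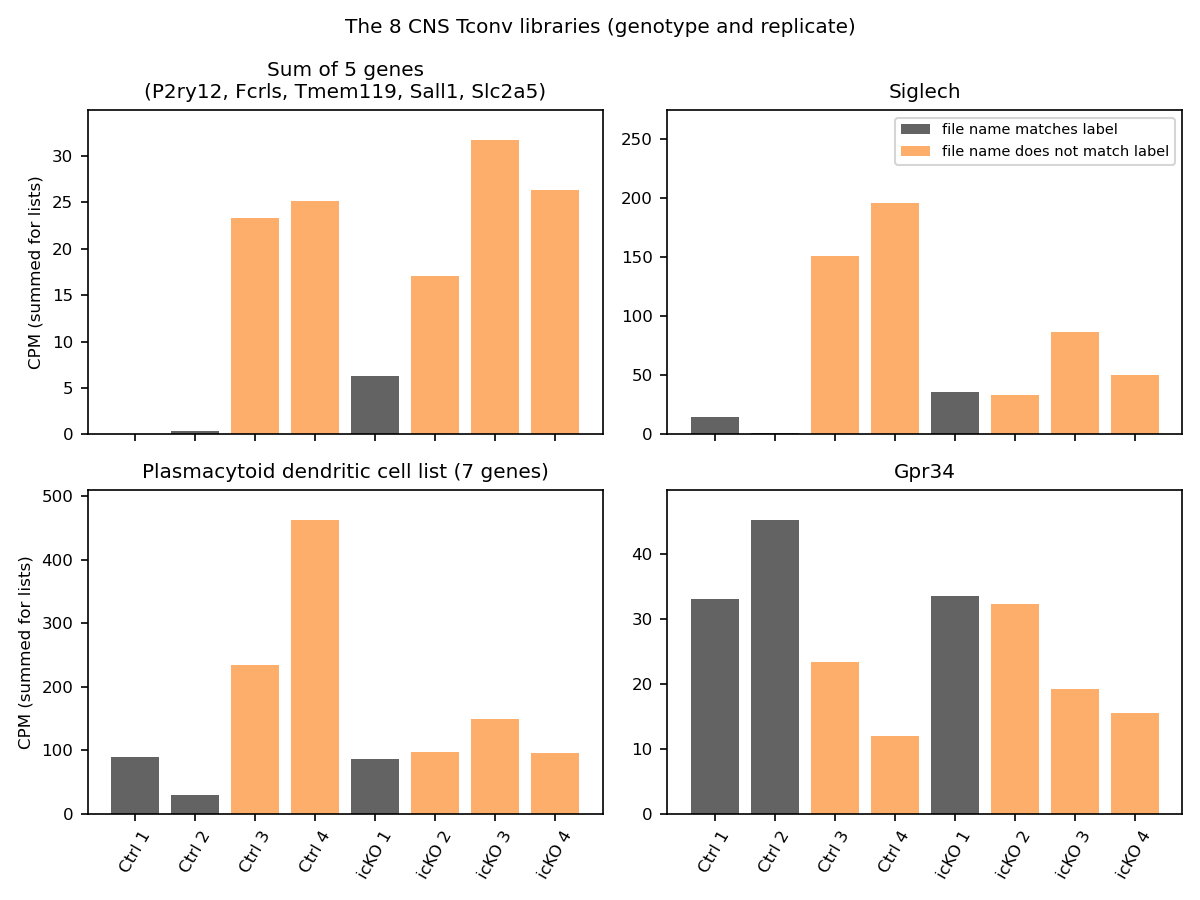
CPM in the 8 CNS Tconv libraries, for the sum of 5 genes, Siglech, the summed plasmacytoid dendritic cell list and Gpr34, with grey bars for libraries whose file name matches the label and orange bars for the others. The 5-gene sum is 0 and 0.390 in Ctrl 1 and 2 while Gpr34 is 33.1 and 45.3 there, and Siglech and the list are both highest in Ctrl 4.

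In Tconv cells 3 members were higher in the CNS than in the dLN in control mice, beside 5.97% of all genes, and 3 in icKO mice, beside 7.81%. They were Cx3cr1, Gpr34 and Tmem119 in Ctrl and Cx3cr1, Fcrls and Tmem119 in icKO. Tmem119 and Fcrls passed the filter on low counts only through CNS libraries, so their calls could go 1 way only and are not to be read against these shares. Cx3cr1 differed by 2.95 ± 0.47 log2 units in Ctrl (adjusted p = 0.00041) and 2.52 ± 0.55 in icKO (0.0031), from 1.58 to 5.35 CPM in dLN Tconv. Gpr34 differed by 1.47 ± 0.41 in Ctrl (adjusted p = 0.027), where its lowest CNS library (11.96) lay below its highest dLN library (12.5), and by 0.95 ± 0.46 in icKO (0.19). Tmem119, at 0 counts in dLN Tconv, was at least 19.2-fold higher in Ctrl (adjusted p = 0.018) and 38.6-fold in icKO (0.009), although Ctrl replicate 1 was itself at 0. Fcrls was at least 18.5-fold higher in icKO (adjusted p = 0.023) and gave 4.28 ± 1.38 in Ctrl (0.063). P2ry12 gave 1.38 ± 0.92 in Ctrl (adjusted p = 0.36) and 2.68 ± 1.18 in icKO (0.14), Siglech 0.83 ± 0.99 (0.65) and 0.29 ± 1.12 (0.91), and Olfml3 -0.50 ± 0.57 (0.62) and -0.54 ± 0.66 (0.65).

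Cx3cr1 in Ctrl was called in all 7 fits that left out 1 library, but not with all 26 libraries (adjusted p = 0.051). Other Tconv calls changed with single libraries. In Ctrl, Tmem119 lost its call without any 1 of the dLN libraries (adjusted p up to 0.076) and Gpr34 in 5 of 7 such fits, namely without any dLN library or without CNS replicate 1 or 2 (up to 0.12). Fcrls in Ctrl was called without CNS replicate 1 or 2 (adjusted p down to 0.027). In icKO, with 2 dLN libraries, Fcrls and Tmem119 lost theirs without either (up to 0.17 and 0.1), and Cx3cr1 without dLN replicate 2 (0.066). Without the 5 libraries with disagreeing names, which leaves Ctrl replicates 1 and 2, P2ry12 was called lower in the CNS (adjusted p = 0.0015), with a fitted -7.61 that rests on 2 libraries at 0 counts and is no bound. There Olfml3 was called lower as well, by -1.68 in Ctrl (adjusted p = 0.022) and -3.78 in icKO (0.011, from a single CNS library, replicate 1), and Tmem119 in Ctrl (0.16) and Cx3cr1 in icKO (0.20) lost their calls. The Cx3cr1-linked effector T cell list, genes such as Klrg1 and Gzma that mark cytotoxic effector T cells, was measured beside Cx3cr1: 5 of its 7 genes were higher in CNS than in dLN Tconv in Ctrl (5.97% of all genes), 4 were higher and 1 lower in icKO (7.81% of all genes higher), and its summed level was 360 (283 to 413) against 137 (126 to 151) in Ctrl. With all 26 libraries 0 of its genes were called in Ctrl, where 0.866% of all genes were higher. In icKO 3 were then higher and 1 lower, beside 4.14% and 5.09% of all genes. The list's part in the Cx3cr1 level was not tested.

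The CNS-to-dLN difference was larger in Treg than in Tconv cells of control mice for P2ry12 by 5.58 ± 1.35 log2 units (adjusted p = 0.022), Cx3cr1 by 4.08 ± 0.67 (0.0015) and Olfml3 by 8.68 ± 1.03 (6.4e-05). These 3 of 9 stood beside 2.55% of all genes called in that direction by the same edgeR interaction contrast. Olfml3 kept this call under every alternative run, while Cx3cr1 and P2ry12 lost theirs with all 26 libraries (adjusted p = 0.11 and 0.20), and P2ry12 also in 4 of 13 fits that left out 1 library (up to 0.08, and 0.11 with only the groups compared), those without dLN Treg Ctrl replicate 1 or 3 or dLN Tconv Ctrl replicate 2 or 3. For Tmem119 and Sall1, at 0 in dLN Tconv, this contrast could not be estimated, although both are among the 9. Not called were Gpr34 (adjusted p = 0.40), Siglech (0.12), Fcrls (0.20) and Slc2a5 (0.058), of which Fcrls and Slc2a5 had 0 counts in dLN Treg. The Olfml3 value came mostly from the Treg arm, 8.17 ± 0.90, as the Tconv arm was -0.50 ± 0.57 (adjusted p = 0.62). Within the dLN, Olfml3 was 0.508 ± 0.284 in Treg against 27.5 ± 4.18 in Tconv (n = 3 each). Within the CNS it was 146.9 ± 24.2 in Treg (n = 3) and 19.5 ± 12.8 in Tconv (n = 4). The 2 cell types thus differed in the dLN as well as in the CNS, in opposite directions.

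Outside the CNS the members were therefore not uniformly absent. In the dLN, Gpr34 ranged from 5.89 to 18.6 over the 11 libraries of the fit, in both cell types. Siglech was 3.34, 66.8 and 82.7 in dLN Tconv Ctrl and 58.1 and 25.3 in icKO, and the plasmacytoid dendritic cell list summed to 70.3, 183.2 and 233.9 and to 173.0 and 94.2 there. Olfml3 was 32.2, 24.2 and 26.2 in dLN Tconv Ctrl and 10.3 and 13.7 in icKO. As a share of the 9 genes' summed TPM, averaged over libraries, Tmem119 made up 29.8% in control CNS Treg (25.5 to 33.6), 1.80% in control CNS Tconv and 0% in control dLN Tconv. Gpr34 made up 7.14% in control CNS Treg but 71.0% in control dLN Treg (68.0 to 76.1), and 36.1% in control CNS Tconv (5.34 to 75.9). Olfml3 and Siglech made up 41.6% (28.5 to 67.4) and 40.4% (4.89 to 61.5) in control dLN Tconv. The make-up thus varied widely between the libraries of a Tconv group, and the summed TPM was 824 in control CNS Treg, 122 in CNS Tconv, 76.2 in dLN Tconv and 16.0 in dLN Treg.

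**Figure D4:**
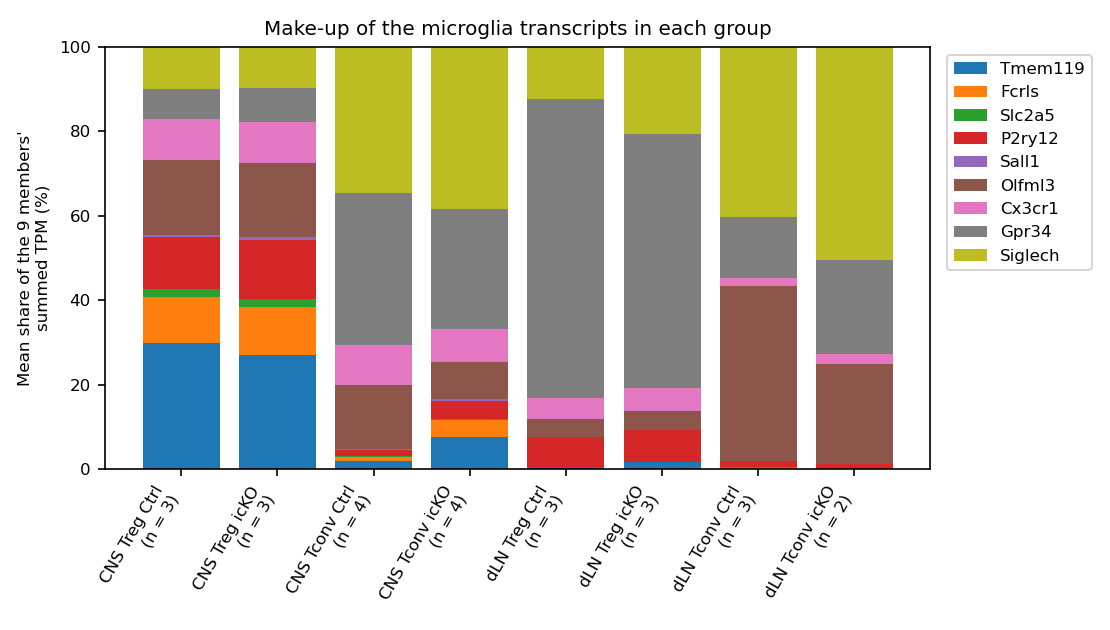
Mean share (%) of each gene in the 9 genes' summed TPM, stacked by group, with the number of libraries under each bar. Tmem119 takes 29.8% in control CNS Treg, Gpr34 71.0% in control dLN Treg, and Olfml3 and Siglech 41.6% and 40.4% in control dLN Tconv.

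Knockout and control were compared within each of the 4 populations, and no member was called in any. In CNS Treg 0 of 9 were called, beside 0% of all genes (915 of 13500 genes had an unadjusted p under 0.05, none of them a member). P2ry12 gave 0.19 ± 0.79 log2 units, Tmem119 -0.18 ± 0.73 and Sall1 0.53 ± 1.41 (adjusted p = 1.0 each), and the ranges of the 2 genotypes overlapped for all 9. Each of these 3 SEs was larger than its estimate. In CNS Tconv 0 of 9 were called beside 3.1% of all genes, with overlapping ranges for all 9. There Olfml3 gave -1.23 ± 0.55 (adjusted p = 0.24, unadjusted 0.036), Tmem119 1.09 ± 0.72 (adjusted p = 0.44) and Siglech -0.82 ± 0.90 (0.67). Without the 5 libraries with disagreeing names, 2 members were called higher in icKO, P2ry12 by 8.42 (adjusted p = 0.009) and Fcrls by 5.23 (0.042), fitted values from 2 Ctrl libraries at or near 0 counts and a single icKO library. In dLN Treg and in dLN Tconv 0 of 9 were called beside 0% of all genes each. Olfml3 in dLN Tconv, 27.5 ± 4.18 in Ctrl (n = 3) and 11.95 ± 2.40 in icKO (n = 2) without overlap, gave -1.2 ± 0.72 (adjusted p = 1.0). The genotype difference was not shown to differ between CNS Treg and CNS Tconv for any member, beside 0.178% of all genes. The values were -1.27 ± 1.02 for Tmem119 (adjusted p = 0.60) and 1.17 ± 0.81 for Olfml3 (0.52).

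The members did not stand alone in CNS Treg libraries. Of 15 further homeostatic microglia genes, chosen with earlier results known, 13 were higher in CNS than in dLN Treg in each genotype (13.3% and 13.1% of all genes), with a median log2 difference of 4.78 in Ctrl and 4.65 in icKO, and 14 were higher in CNS Treg than in CNS Tconv (10.8% and 8.38% of all genes, medians 5.51 and 4.11). With all 26 libraries these counts were 9 and 7 (4.1% and 3.74% of all genes), and 12 and 4 (4.37% and 3.07% of all genes). Upk1b had 0 counts in dLN Treg of both genotypes and Trem2 in icKO dLN Treg, so a tissue call of these could go 1 way only. Whether the listed genes passed the filter on low counts only through CNS libraries was not examined, so the tissue counts are not a like-for-like share. The complement genes C1qb and C1qc were 956 ± 288 and 659 ± 198 in control CNS Treg, and 15.3 ± 18.4 and 13.4 ± 14.6 in CNS Tconv. Of 11 genes linked to activated microglia, 7 were higher in CNS Treg than in dLN Treg in each genotype and 1 was lower, beside 13.3% and 13.1% of all genes higher and 8.55% and 9.41% lower. With all 26 libraries 3 and 2 were higher, beside 4.1% and 3.74% of all genes. The 7 included Tyrobp, an adaptor of Trem2 (209 ± 38.1 against 10.7 ± 7.79 in Ctrl), and Ctsd, the protease cathepsin D (1562 ± 156 against 407 ± 113). Ctsd was also 1104 ± 172 in control CNS Tconv and 650 ± 23.8 in dLN Tconv, where it was called higher in the CNS too (adjusted p = 0.0029, and 0.11 with all 26 libraries).

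Monocyte, neutrophil and border macrophage transcripts were also higher in CNS Treg than in CNS Tconv libraries. Within CNS Treg the members summed highest in Ctrl replicate 1 (1267) and icKO replicate 2 (1240), and lowest in Ctrl replicate 3 (934). The monocyte list was highest in icKO replicate 3 (4428) and lowest in icKO replicate 2 (1686). The neutrophil list was highest in Ctrl replicate 1 (1489) and icKO replicate 2 (770). It was lowest in icKO replicate 3 (76.9), where the members summed to 961. In CNS Treg libraries 9 monocyte genes summed to 2372 to 4105 in Ctrl and 1686 to 4428 in icKO, against 558 to 1504 in CNS Tconv, and 7 neutrophil genes to 567 to 1489 and 76.9 to 770, against 0 to 3.11. Border macrophage genes, which mark macrophages of the meninges and vessels, summed to 94.9 to 211 in CNS Treg and 0.279 to 22.9 in CNS Tconv. The myeloid lysozyme gene Lyz2 was 1159 ± 237 in control CNS Treg and 4.41 ± 4.76 in control CNS Tconv. The monocyte genes did not all differ so far. Chil3 was 809 ± 450 in control CNS Treg and 0 in control CNS Tconv, but Ly6c2 was 342 ± 115 and 308 ± 94.0. In dLN Treg, Lyz2 was 283 ± 265 in Ctrl and 408 ± 146 in icKO while Fcrls, Sall1 and Slc2a5 had 0 counts, so myeloid transcripts were present there without these members. The 8 neuron genes summed to 1.45 to 6.50 in CNS Treg, with Rbfox3 and Syt1 at 0 in both genotypes. They summed to 4.44 to 12.76 in CNS Tconv and 3.63 to 11.55 in the dLN libraries of the fit. The 8 astrocyte genes summed to 18.8 to 58.5 in CNS Treg and 2.36 to 20.3 in CNS Tconv. In Ctrl 2 of them were called higher in CNS Treg than in CNS Tconv, beside 10.8% of all genes. In icKO 1 was, beside 8.38% of all genes, and with all 26 libraries 0 were in either genotype. The 8 oligodendrocyte genes summed to 741 to 1040 in CNS Treg and 932 to 1169 in CNS Tconv, with Cldn11 at 0 in both. Most of that sum was Cnp, at 727 ± 171 in control CNS Treg and 728 ± 94.2 in CNS Tconv, and called higher in CNS than in dLN Treg (457 ± 21.4, adjusted p = 0.0027), a call lost with all 26 libraries (0.072). The 6 T cell genes summed to 4819 to 6355 in CNS Treg and 6351 to 8088 in CNS Tconv. The part of these other cells in the members' levels was not tested.

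**Figure D5:**
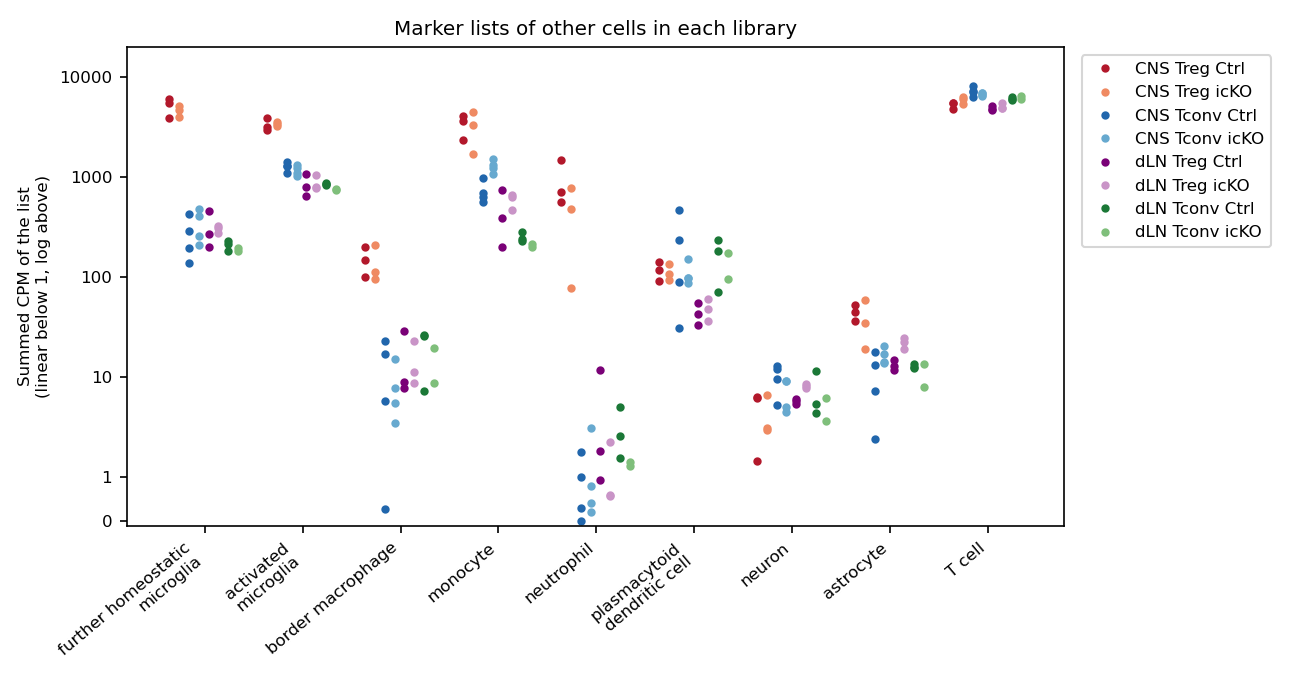
Summed CPM (linear below 1, log above) of 9 marker lists in each library, coloured by group. CNS Treg libraries lie highest for both microglia lists, border macrophage, monocyte and neutrophil genes, while the T cell list stays within 4693 to 8088 in all groups.

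The genes whose pattern was most like the members' mean were ranked by Pearson correlation of log2 CPM with 0.5 added. Libraries fall into clusters by group, so the values describe that shared pattern and carry no p. Over the 14 CNS libraries the 10 closest included Trem2 (r = 0.995), Cd68 (0.994), P2ry6 (0.993), Lyn, Emilin2, Cd300a, Cfp, C1qa and Cttnbp2nl (0.984). Trem2, a lipid-sensing receptor of microglia and macrophages, was 58.1 in control CNS Treg, 1.30 in CNS Tconv and 0.659 in dLN Treg. The lysosomal protein Cd68 was 166.9, 11.8 and 13.4. Over all 25 libraries the 10 closest included Sparc (r = 0.978), Unc93b1, Trem2, Slco2b1, Asah1, Cd34, Slamf9 and Crybb1 (0.949). Among the members themselves, each set against the mean of the other 8 over the 14 CNS libraries, 7 had r from 0.907 (Olfml3) to 0.988 (Fcrls), and Siglech and Gpr34 stood lower at 0.653 and 0.569.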

How the data were processed

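RNA of sorted Treg and Tconv cells was made into libraries with SMART-Seq v4 and Nextera, which keep no strand, per the labels' protocols. Per the submitters' processing notes, the authors used FastQC, Trimmomatic, STAR 2.5.3a and RSEM 1.2.28 with mm10. The deposited tables hold the authors' RSEM expected counts and TPM for 24848 genes in 26 libraries. Expected counts were rounded. Sample groups follow the labels.

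Tables were built in pandas (2.3.3) and numpy (2.4.6), plots in matplotlib (3.10.9), under Python 3.11.15. In R 4.3.3, edgeR 4.0.16 (TMM, filterByExpr, which kept 13500 genes, and the quasi-likelihood test) was fitted to 8 group means over 25 libraries, with Benjamini-Hochberg adjustment at 0.05. The filter kept genes above about 0.696 CPM in 2 or more libraries. SE is the log2 fold change over the square root of its F statistic. The script was tested on simulated data.

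The members, lists, tests and the left-out library were chosen with earlier results of these data known. All 9 members are named, with up to 3 genes of a list by TPM and 10 genes by correlation over 14 and over 25 libraries. Some genes these rules name are not reported here. Alternatives were all 26 libraries, DESeq2 1.42.0 size factors or Wald test, limma 3.58.1 with quality weights, no filter, 1 CPM in 3 libraries, only the groups compared, a replicate block, each library left out, and the CNS Tconv libraries split by file name.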

Additional observations from a re-analysis of the deposited data

Results flagged for a closer look

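For 3 genes the CNS-to-dLN difference of control mice differed between Treg and Tconv cells by edgeR's interaction contrast. The difference of differences was 5.58 log2 units for P2ry12, 4.08 for Cx3cr1 and 8.68 for Olfml3. Every CNS Treg library lay above every dLN Treg library for all 3, while the CNS and dLN Tconv ranges overlapped for P2ry12 and Olfml3 and lay apart for Cx3cr1. In no CNS Tconv group of 4 did a member have a lone library whose gap to the others, as a share of the range, passed Dixon's limit, above which about 1 group in 20 falls by chance. This test cannot flag a group that falls into 2 pairs, such as Tmem119 in CNS Tconv Ctrl with 0 and 0.334 against 8.01 and 8.10 CPM. It therefore does not show that the libraries of a group are alike.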

How the results depend on the processing

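Of 62 fold changes reported for members, 41 were called, none of these reversed under any alternative, and 25 stayed called under all of them. The 25 include Fcrls, Tmem119, Sall1 and Slc2a5 for CNS against dLN Treg in both genotypes. These genes passed the filter on low counts only through CNS libraries and so had to differ there. Their kept calls and missing reversals are therefore not a test of robustness. The 16 reversals were all of uncalled values, and the cause was not tested where none is named.

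Members called, CNS against dLN Tconv Ctrl, fell from 3 to 1 (Tmem119) with all 26 libraries and to 1 (Cx3cr1) in a fit of only the groups compared (5 members tested), and ranged from 1 to 3 with 1 library left out. For Tconv icKO the range was 0 to 3, and Cx3cr1, Fcrls, P2ry12, Sall1, Slc2a5 and Tmem119 were called in an alternative chosen after seeing the data. Fcrls, Sall1, Slc2a5 and Tmem119 passed the filter on low counts only through CNS libraries, so their calls could go 1 way only. The 6 were not set beside a share of all genes in that fit. It used only the 5 CNS Tconv libraries whose file names disagree with their labels. Without these 5, 2 were called for icKO against Ctrl in CNS Tconv, 1 for the genotype difference between CNS Treg and CNS Tconv, and 6 for the tissue difference. The tissue difference, 3 of 9, gave 1 with all 26 libraries, 5 with limma and 5 with only the 5 libraries. The summed CPM of CNS Tconv was 70.13 in place of 174.9 in Ctrl without the 5, and 83.21, a single library, in place of 121.4 in icKO.

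Reversed values, CNS against dLN Tconv Ctrl: P2ry12 -0.27 with limma and -7.61 without the 5, Siglech -0.25 with the replicate block and -2.74 without the 5, Fcrls -1.62 without the 5 (fitted to Ctrl libraries at or near 0), and Olfml3 0.13 with only the 5. In Tconv icKO, Siglech was -0.22 without the 5 and -0.19 to 1.0 with 1 library left out, and Olfml3 0.03 with all 26 libraries, which shifted the median of all genes to 0.219. Siglech in CNS Treg against Tconv Ctrl was -0.60 with only the 5 and -0.08 to 1.05 with 1 library left out. Tmem119, icKO against Ctrl in CNS Treg, ranged from -0.41 to 0.07. Siglech, icKO against Ctrl in CNS Tconv, was 0.91 with limma and 2.24 without the 5.

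Deviations from group means showed no pairing by replicate number. Their correlation was -0.15 to 0.11 for same-numbered and -0.17 to 0.19 for differently numbered libraries. With so few libraries per group this cannot tell whether equal numbers are the same mouse. With the numbers as a replicate block, members called were 9 and 9 for Treg tissue, 2 and 3 for Tconv tissue, 8 and 7 for Treg against Tconv, 0 for each genotype comparison and the genotype difference, and 3 for the tissue difference. A lone library left in a group was assumed to vary like the others. At these depths a gene at 0 counts may still reach 3 counts per library.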

Other observations

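Of 6 endothelial genes, 1 was called higher in CNS Treg than in CNS Tconv libraries of control mice, where 10.8% of all genes were called higher, and 0 in icKO mice (edgeR). It was Flt1, a receptor for vascular endothelial growth factor, at 10.5 ± 7.09 CPM in control CNS Treg (n = 3) and 0 counts in the 4 control CNS Tconv libraries (adjusted p = 0.0029). With all 26 libraries it was not called (adjusted p = 0.069). In icKO mice it was 8.18 ± 8.28 and 0.595 ± 0.513 (adjusted p = 0.084). Pecam1, which T cells also express, was 89.4 ± 2.75 and 109 ± 35.2 in control mice (adjusted p = 0.39).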
